A study of Homo sapiens with 6 samples.

Results

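GAS5, SNHG1, SNHG5, SNHG6, SNHG7, SNHG8, SNHG12, SNHG15, SNHG16 and ZFAS1 are noncoding transcripts that carry small nucleolar RNAs (snoRNAs) in their introns and are known for promoters of the terminal oligopyrimidine (TOP) kind. These 10 genes were taken by name from the 23026 human genes of the normalized count table, and all 10 had a row. Their levels were examined in T98G cells, a human glioblastoma line, infected with a lentivirus that expressed either a control short hairpin RNA (shControl) or a hairpin against the kinase DYRK1A (shDYRK1A), with puromycin used in both conditions to select infected cells. Each condition had 3 libraries, named 1A, 1B and 1C. A single hairpin against DYRK1A was sequenced, and the labels do not say whether the libraries of a condition came from separate infections, so the p-values measure only the spread between these libraries. The same number of T98G cells in each condition had been mixed with a fixed number of Drosophila Kc167 cells, whose RNA served as an external scale. The total cell number was thus set at mixing, but in such bulk RNA fewer cells of a given kind and less RNA per cell cannot be told apart.

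A snoRNA guides the chemical modification of ribosomal and spliceosomal RNA. Most human snoRNAs are not transcribed on their own but are released from the introns of a host gene, where box C/D snoRNAs guide ribose methylation and box H/ACA snoRNAs guide pseudouridylation. In the noncoding hosts the spliced exons have little or no coding capacity, and for several of them, GAS5 and SNHG1 among them, the spliced RNA is known to be removed by nonsense-mediated decay when it is translated. TOP transcripts begin with a C followed by a run of pyrimidines, a start shared with nearly all ribosomal protein genes (RPGs) and many translation factors, and their translation depends on mTOR and on the RNA-binding protein LARP1. By this class the hosts are grouped with the RPGs, the genes at the centre of the study.

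The start sites are shown because the pyrimidine run is the feature that places these hosts among the TOP genes. The RefSeq promoter sequences (GRCh38.p14) had an entry for 8 of the 10 hosts, SNHG6 and SNHG15 being the others. Each line gives the 70 bases from 40 bases before the annotated start onwards, 5′ to 3′ on the strand of the host, and capitals mark the unbroken run of C and T that holds the annotated first base or the base before it.
SNHG1: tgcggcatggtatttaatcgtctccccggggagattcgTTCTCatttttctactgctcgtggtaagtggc
SNHG5: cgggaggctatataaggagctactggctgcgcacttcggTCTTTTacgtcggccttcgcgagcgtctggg
SNHG7: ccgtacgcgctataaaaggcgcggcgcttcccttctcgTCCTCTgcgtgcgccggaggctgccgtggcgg
SNHG8: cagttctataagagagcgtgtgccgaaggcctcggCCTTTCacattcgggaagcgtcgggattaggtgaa
SNHG12: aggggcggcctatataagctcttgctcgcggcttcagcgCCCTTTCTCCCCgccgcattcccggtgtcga
SNHG16: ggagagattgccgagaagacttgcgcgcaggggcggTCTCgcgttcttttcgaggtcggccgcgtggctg
ZFAS1: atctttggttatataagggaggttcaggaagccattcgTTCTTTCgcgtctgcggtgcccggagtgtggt
GAS5: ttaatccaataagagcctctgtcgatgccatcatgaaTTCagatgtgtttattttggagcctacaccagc
The run had 12 bases in SNHG12, 7 in ZFAS1, 6 in SNHG5, SNHG7 and SNHG8, 5 in SNHG1, 4 in SNHG16 and 3 in GAS5. The windows lie at chr11:62855856-62855925 (minus strand) for SNHG1, chr6:85678704-85678773 (minus) for SNHG5, chr9:136728155-136728224 (minus) for SNHG7, chr4:118278722-118278791 (plus) for SNHG8, chr1:28581844-28581913 (minus) for SNHG12, chr17:76557724-76557793 (plus) for SNHG16, chr20:49278602-49278671 (plus) for ZFAS1 and chr1:173869016-173869085 (minus) for GAS5.

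A run of at least 4 pyrimidines, placed as defined above, was present in 7 of the 8 hosts and in 26.7% of the 35116 RefSeq promoters of 300 bases. A run of at least 6 was present in 5 of the 8 and in 12.5% of all. In SNHG16 and GAS5 the run ended before the annotated first base, and in SNHG8 it ended at that base. The annotated first base was a C followed by further pyrimidines in SNHG1, SNHG5, SNHG7, SNHG12 and ZFAS1 only. The RefSeq start of GAS5, where the run was shortest, lies 163 bases away from the gene end that the count files use, and the distance was 1110 bases in SNHG12, 464 in ZFAS1, 53 in SNHG8, 29 in SNHG1 and at most 3 in SNHG5, SNHG7 and SNHG16. The letters TATAA, bound by TBP in many promoters and read on the host's strand only, occurred between 40 and 16 bases before the start in SNHG5, SNHG7, SNHG8, SNHG12 and ZFAS1, that is in 5 of 8 hosts against 3.91% of all promoters. That window was chosen after the sequences had been seen. Other motifs were searched on both strands of the 300 bases. The palindrome TCTCGCGAGA, the motif that the study follows at DYRK1A-bound RPG promoters, was in 0 of the 8 hosts and in 0.424% of all promoters. Its first 7 letters, TCTCGCG, were found in SNHG16 alone and in 3.49% of all promoters, and in SNHG16 they begin with the printed run of capitals. The E-box CACGTG was present in SNHG7 alone (7.26% of all promoters), and the ETS-type letters CCGGAAG in 0 of the 8 (10.3% of all). A match or its absence describes these windows and not the binding of a factor.

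Human gene counts summed to between 33708297 and 42154438 per library, and the constants by which the deposited normalized counts divide the raw counts ran from 0.821 to 1.03 in shControl and from 1.06 to 1.21 in shDYRK1A. DYRK1A itself had 2227, 2234 and 1895 normalized counts in shControl and 1482, 1056 and 1285 under its hairpin. It fell by 0.73 ± 0.15 on the log2 scale (SE, adjusted p = 5.33e-06, edgeR quasi-likelihood test, n = 3). With all human genes divided by these constants, the median log2 fold change of the 9697 tested genes was -0.40, so a transcript with that value kept its share of human RNA. Changes were therefore also measured after TMM scaling over the human genes, where the median was 0.00. On that scale the log2 fold change of DYRK1A was -0.34 ± 0.06 (SE, adjusted p = 0.000591, edgeR quasi-likelihood test). VIM, CD44, FN1 and NES, taken as genes of mesenchymal glioblastoma, summed to between 4282 and 4351 CPM (counts scaled to an equal human library size by TMM) in shControl and to between 3713 and 3872 in shDYRK1A. NES itself had only 1.26 to 2.03 CPM over all libraries. The neuronal genes RBFOX3, SNAP25 and SYT1 summed to 10.5 to 11.8 CPM and to 6.08 to 6.83 CPM. Most of that sum was SNAP25 (5.61 to 11.3 CPM), and RBFOX3 had at most 0.0256 CPM. Marker sets of astrocytes (2 of 4 genes at 0 in every library), microglia, oligodendrocytes and endothelium stayed below 1 CPM. The part of these differences in the results was not tested.

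The hosts spanned a wide range of levels. Per kilobase of annotated exon, SNHG5 had 2402 ± 360 normalized counts (SD, n = 3) in shControl, GAS5 2269 ± 307, SNHG6 2099 ± 341 and SNHG1 1791 ± 226, and the libraries of each of these overlapped those of the next in order. SNHG16 followed with 1066 ± 139, apart from SNHG1 above it and from SNHG8 (809 ± 95.8) below it. The libraries of SNHG8 and ZFAS1 (643 ± 131) overlapped, as did those of SNHG7 (444 ± 59.7) and SNHG15 (324 ± 46.2). SNHG12 was the lowest host with 96.2 ± 6.63. The exon lengths come from GENCODE v29 and include transcripts that retain introns, which lowers the level per kilobase of hosts with such transcripts.

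**Figure D1:**
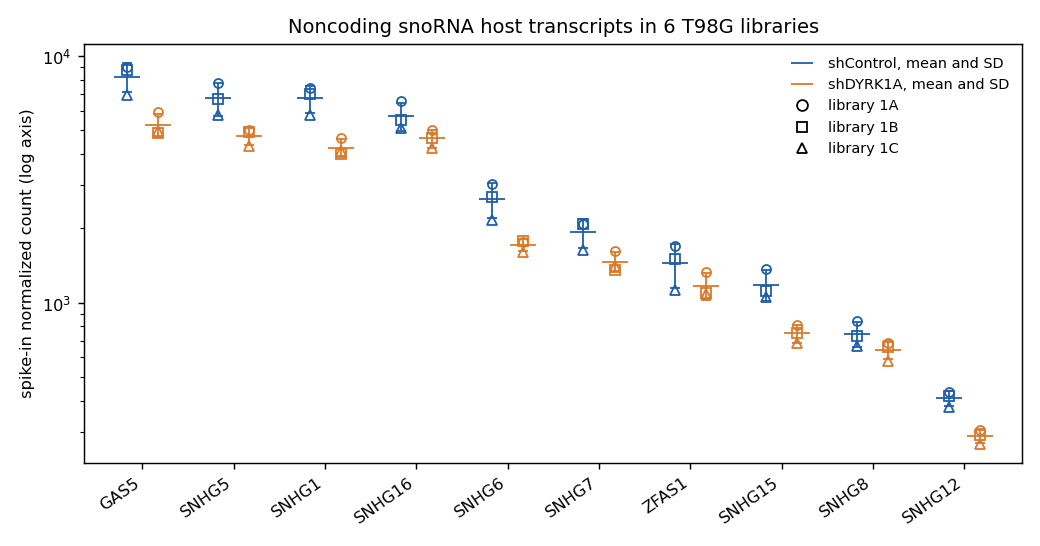
Spike-in normalized counts of the 10 hosts (log axis) in the 3 shControl (blue) and 3 shDYRK1A (orange) libraries, with mean and SD as horizontal and vertical bars and a symbol per library. The shDYRK1A libraries lie below all shControl libraries in 8 hosts and overlap with them in ZFAS1 and SNHG8.

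In DYRK1A-silenced cells most of these hosts were lower on the spike-in scale, as were most human genes. Of the 10 hosts, 9 passed the filter of a mean normalized CPM above 10, and 7 of the 9 were lower in shDYRK1A at an adjusted p below 0.05 (edgeR quasi-likelihood test), against 63.4% of all 9697 tested genes. None of the 9 was higher (0 hosts, also 0 at an unadjusted p below 0.05 and 0 with DESeq2), against 1.08% of all genes. None reached the study's fold threshold of -0.7 (0 hosts, also with DESeq2 and at any unadjusted p, since the lowest value was -0.66), against 14.3% of all genes. Without shControl 1C, 4 hosts passed that threshold (GAS5 and SNHG1 at -0.76, SNHG15 and SNHG6 at -0.73) beside 21.4% of genes, and without shDYRK1A 1A the first 3 of these did, beside 21.6%. In 7 of the 9 each shDYRK1A library lay below every shControl library in normalized counts, which held for 63.6% of all genes. The median log2 fold change of the 9 hosts was -0.51, beside -0.40 for all tested genes. The count of lower hosts ranged from 5 to 8 when each library was left out in turn. All genes called lower ranged with it, from 3979 of 9613 (without shControl 1A, 5 hosts) to 7549 of 9727 (without shControl 1C, 8 hosts).

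GAS5, SNHG1, SNHG15 and SNHG6 had the largest falls. GAS5, named for its rise in growth-arrested cells and a host of box C/D snoRNAs (ENSG00000234741, hg38 chromosome 1, 173863900 to 173868882, minus strand), had 8989, 8772 and 6958 normalized counts in the control libraries 1A, 1B and 1C and 5911, 4864 and 4978 in the DYRK1A-silenced ones, in the same order as for all hosts below. Its 3 shDYRK1A libraries were all lower than the lowest control, and the log2 fold change was -0.65 ± 0.13 (SE, adjusted p = 1.08e-05, edgeR). SNHG1, the host of SNORD22 and of SNORD25 to SNORD28 and SNORD30 (ENSG00000255717, chromosome 11, 62851988 to 62855914, minus strand), had 7408, 6995 and 5776 normalized counts in shControl and 4633, 3990 and 4118 in shDYRK1A. Its lowest control lay 1143 counts above its highest shDYRK1A library, with a log2 fold change of -0.66 ± 0.14 (adjusted p = 8.71e-06, edgeR).

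SNHG15, the host of the H/ACA snoRNA SNORA9 (ENSG00000232956, chromosome 7, 44983023 to 44986961, minus strand), was less abundant, with 1372, 1115 and 1054 normalized counts in shControl and 815, 751 and 687 in shDYRK1A. Its groups were apart and its log2 fold change was -0.65 ± 0.15 (adjusted p = 0.000107, edgeR). SNHG6, the host of SNORD87 (ENSG00000245910, chromosome 8, 66921684 to 66926398, minus strand), had 3012, 2676 and 2166 normalized counts in shControl and 1757, 1775 and 1609 in shDYRK1A. The shDYRK1A libraries of SNHG6 were close together and all below the controls, and it fell by 0.61 ± 0.14 on the log2 scale (adjusted p = 9.95e-05, edgeR). The 4 falls correspond to between 34.5 and 36.9% fewer counts relative to the fly RNA.

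SNHG5, the host of the U50 snoRNA SNORD50B (ENSG00000203875, chromosome 6, 85660950 to 85678736, minus strand), had 7773, 6693 and 5756 normalized counts in shControl and 5017, 4897 and 4300.4 in shDYRK1A. Its groups were apart, and the log2 fold change was -0.51 ± 0.14 (adjusted p = 0.000613, edgeR). SNHG7, the host of SNORA17A and SNORA17B (ENSG00000233016, chromosome 9, 136721366 to 136728184, minus strand), had 2079, 2082 and 1632 normalized counts in shControl and 1614, 1359 and 1412 in shDYRK1A. A gap of 17.4 counts separated the lowest control of SNHG7 from its highest shDYRK1A library, its log2 fold change of -0.40 ± 0.15 (adjusted p = 0.0121, edgeR) equalled the median of all genes, and it did not pass without shControl 1A (adjusted p = 0.107), shControl 1B (0.0946) or shDYRK1A 1C (0.0929). SNHG12, the host of SNORA16A, SNORA44, SNORA61 and SNORD99 (ENSG00000197989, chromosome 1, 28578538 to 28582983, minus strand), had 433, 419 and 379 normalized counts in shControl and 303, 292 and 268 in shDYRK1A. SNHG12 did not pass the CPM filter. In a fit with edgeR's filterByExpr, which keeps 17530 genes and calls 44.2% of them lower, its log2 fold change was -0.51 ± 0.17 (adjusted p = 0.00968).

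SNHG16, ZFAS1 and SNHG8 had the smallest differences. SNHG16, the host of SNORD1A, SNORD1B and SNORD1C (ENSG00000163597, chromosome 17, 76557766 to 76565348, plus strand), had 6548, 5475 and 5116 normalized counts in shControl and 5009, 4633 and 4244 in shDYRK1A. The groups of SNHG16 were apart by 108 counts, and it fell by 0.30 ± 0.14 on the log2 scale (adjusted p = 0.0413, edgeR). The call of SNHG16 was lost when shControl 1A (adjusted p = 0.329), shControl 1B (0.0837), shDYRK1A 1B (0.0676) or shDYRK1A 1C (0.245) was left out, and also with filterByExpr (0.0507) and with a minimum of 1 count (0.0866). ZFAS1, the host of SNORD12, SNORD12B and SNORD12C (ENSG00000177410, chromosome 20, 49278178 to 49295738, plus strand), had 1703, 1499 and 1125 normalized counts in shControl and 1334, 1093 and 1083 in shDYRK1A. The lowest control library of ZFAS1 lay among the shDYRK1A libraries, and the log2 fold change of -0.30 ± 0.15 did not pass (adjusted p = 0.0677, edgeR). It passed without shControl 1C (-0.45, adjusted p = 0.00296) and without shDYRK1A 1A (-0.41, adjusted p = 0.0249). SNHG8, the host of SNORA24 (ENSG00000269893, chromosome 4, 118278709 to 118279823, plus strand), had 841, 733 and 666 normalized counts in shControl and 685, 661 and 582 in shDYRK1A. Its groups overlapped, and its log2 fold change was -0.22 ± 0.16 (adjusted p = 0.213, edgeR).

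Some of these exons are shared with other genes. Genes on the opposite strand cover 30.6% of the exon bases of SNHG16, 29.3% of SNHG6, 26.1% of ZFAS1 and 25.2% of SNHG7. Genes on the same strand cover 20.9% of ZFAS1, 15.3% of SNHG1 and 14.2% of SNHG8. In SNHG1 and SNHG8 these same-strand genes are the snoRNA genes inside the host. The kit marks strand, but the strand setting of the counting is not given in the sources used here. Counts from bases shared with the opposite strand are therefore uncertain. Those from bases shared on the same strand are uncertain as well, because how such reads were counted was not tested.

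**Figure D2:**
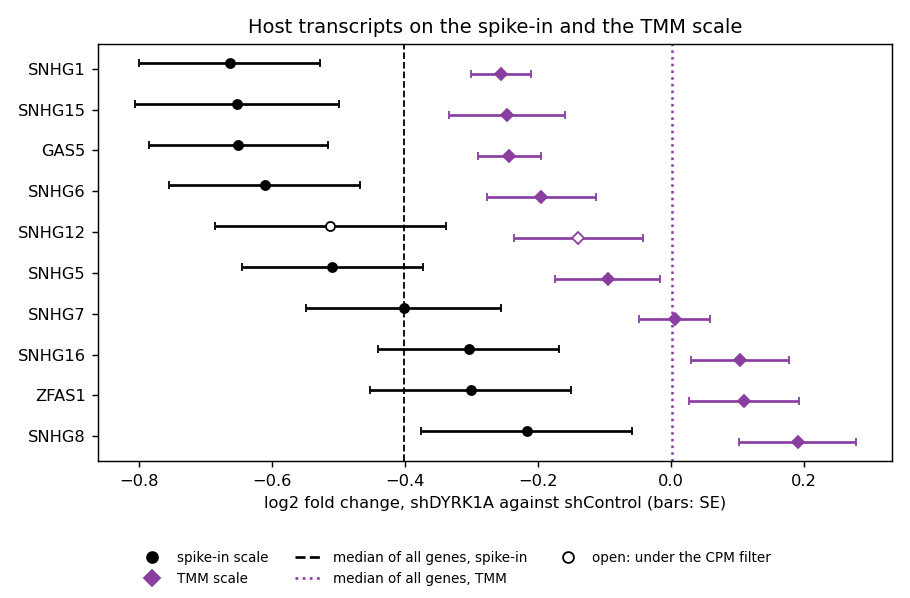
Log2 fold change of each host in shDYRK1A against shControl, with SE, on the spike-in scale (black circles) and the TMM scale (purple diamonds), with dashed and dotted lines at the medians of all tested genes. SNHG1, SNHG15, GAS5 and SNHG6 lie left of both medians, while SNHG16, ZFAS1 and SNHG8 lie right of both, and open symbols mark SNHG12, which was under the CPM filter.

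Relative to other human genes, the share of hosts called lower was near that of all genes, and none was higher. After TMM scaling, 3 of the 9 tested hosts were lower (edgeR quasi-likelihood test, adjusted p below 0.05), against 28.6% of all genes, and none was higher (0 hosts, also 0 at an unadjusted p below 0.05 and 0 with DESeq2), against 27.3% of all genes. The 3 lower hosts were GAS5, SNHG1 and SNHG15. GAS5 had 189, 185 and 174 CPM in shControl and 158, 158 and 147 in shDYRK1A, and its log2 fold change was -0.24 ± 0.05 (adjusted p = 0.00111, edgeR). SNHG1 had 156, 147 and 145 CPM in shControl and 124, 130 and 122 in shDYRK1A, and its log2 fold change was -0.26 ± 0.05 (adjusted p = 0.000616, edgeR). In both hosts the groups did not overlap, and both passed without each library in turn. SNHG15 had 28.8, 23.5 and 26.4 CPM in shControl and 21.8, 24.4 and 20.3 in shDYRK1A. The libraries of SNHG15 overlapped, and its log2 fold change of -0.25 ± 0.09 (adjusted p = 0.0299, edgeR) did not pass without shControl 1A (adjusted p = 0.129), shControl 1C (0.086), shDYRK1A 1A (0.0792) or shDYRK1A 1C (0.0995).

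The other hosts did not pass on the TMM scale. SNHG6 had 63.3, 56.3 and 54.3 CPM in shControl and 47.0, 57.7 and 47.5 in shDYRK1A, where 1B lay among the controls, and its log2 fold change was -0.19 ± 0.08 (adjusted p = 0.063, edgeR). SNHG6 passed with DESeq2 (adjusted p = 0.0429), with filterByExpr (0.0301) and with a minimum of 1 count (0.000658). DESeq2 and filterByExpr thus each called 4 hosts lower, beside 2696 of 9697 and 3680 of 17530 genes. SNHG5 had 163, 141 and 144 CPM in shControl and 134, 159 and 127 in shDYRK1A, again with 1B inside the control range (log2 fold change -0.09 ± 0.08, adjusted p = 0.33, edgeR). The values were 0.01 ± 0.05 for SNHG7 (adjusted p = 0.93), 0.10 ± 0.07 for SNHG16 (0.249), 0.11 ± 0.08 for ZFAS1 (0.273) and 0.19 ± 0.09 for SNHG8 (0.0858), all from edgeR and all opposite in sign to their values on the spike-in scale. For SNHG12 the filterByExpr fit, which called 21% of genes lower on this scale, gave -0.14 ± 0.10 (adjusted p = 0.276). In CPM, 2 of the 9 hosts had all shDYRK1A libraries below all controls, against 32.5% of genes, and 0 had them all above, against 30.7%. The median log2 fold change of the 9 hosts was -0.09, beside 0.00 for all genes. Without shDYRK1A 1B the count of lower hosts was 5 instead of 3, beside 2902 of 9719 genes. The added hosts were SNHG6 at -0.29 (adjusted p = 0.000516) and SNHG5 at -0.19 (adjusted p = 0.0192). Without shDYRK1A 1C, SNHG8 passed as higher, at 0.26 (adjusted p = 0.0325).

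The makeup of the host pool can be read without any scaling, as shares of the counts that the 10 hosts drew within a library. GAS5 held 23.1 ± 0.887% of these counts in shControl and 21.1 ± 0.951% in shDYRK1A (SD, n = 3), and SNHG1 18.8 ± 0.370% and 17.1 ± 0.642%, with no overlap of groups in either host. SNHG16 held 16.01 ± 0.882% and 18.6 ± 0.423%. SNHG8 held 2.09 ± 0.0818% and 2.58 ± 0.118%, and ZFAS1 4.01 ± 0.299% and 4.69 ± 0.217%, in shControl and shDYRK1A. All shDYRK1A libraries were above the controls in these 3 hosts, while the shares of SNHG5, SNHG6, SNHG7, SNHG12 and SNHG15 overlapped. A difference in 5 hosts at a time is not independent, since the shares add to the whole. Summed over the 10 hosts, the level was 793 ± 43.8 CPM in shControl and 734 ± 52.3 CPM in shDYRK1A, with overlapping libraries, and the hosts made up 0.0762 to 0.0835% of human counts in shControl and 0.0699 to 0.0779% in shDYRK1A.

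Within each condition the hosts moved together between libraries, in the same libraries as the RPGs. Among the shDYRK1A libraries, 1B had the highest CPM of 9 of the 10 hosts, ZFAS1 being the other, and of 81 of 83 tested RPGs, against 42.3% of all genes. Among the controls, 1A was the highest library for 8 of the 10 hosts, with SNHG7 and SNHG12 as the others, and for 68 of the 83 RPGs, against 36.4% of all genes. Coding snoRNA hosts with a TOP start, most of them RPGs and translation factors, were highest in shDYRK1A 1B in 27 of 28 cases and in shControl 1A in 19 of 28. Coding hosts outside the TOP class were highest in these libraries in 7 and 18 of 24, TOP genes that encode no ribosomal protein in 19 and 12 of 25, and other noncoding hosts in 9 and 9 of 11. These counts describe the libraries, and no difference between the lists was tested. SNHG8 had 21.5 CPM in shDYRK1A 1B beside 18.3 and 17.2 in 1A and 1C, and SNHG16 had 151 CPM beside 134 and 125. The share of RPGs in human counts was 7.05% in shDYRK1A 1B, 6.28 and 6.17% in 1A and 1C, and 6.43 to 6.71% in shControl. Library 1B also had the fewest human counts (33708297), the most unmapped reads (15.6%, against 8.44 to 11.9% in the other 5) and the lowest DYRK1A count, and the part of these differences in the host levels was not tested.

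**Figure D3:**
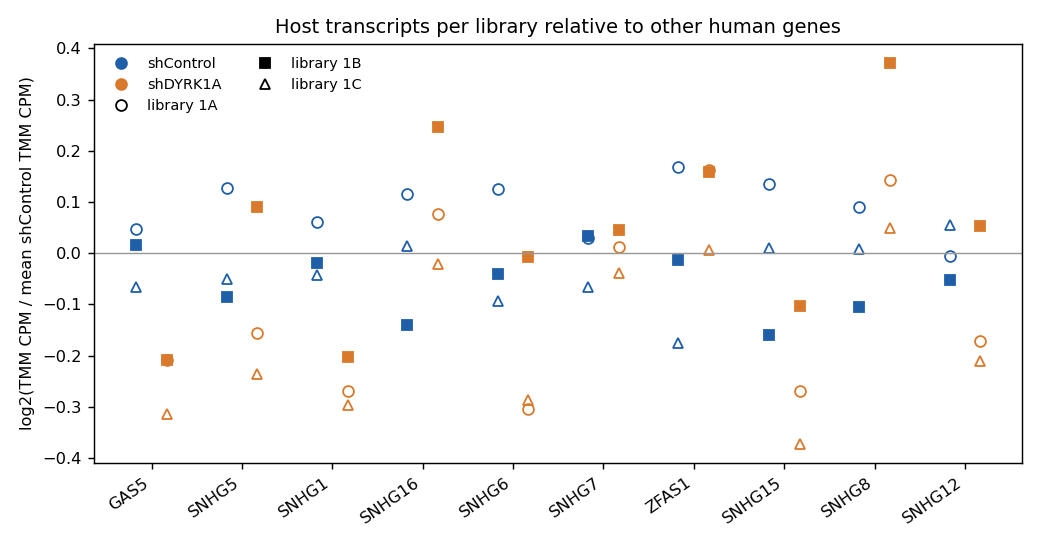
Log2 of each library's TMM-scaled CPM over the mean of the shControl libraries, for the 10 hosts in order of level, with blue for shControl, orange for shDYRK1A and filled squares for the 1B libraries. The filled orange square is the highest shDYRK1A point in every host except ZFAS1, and GAS5 and SNHG1 are the hosts whose orange points all lie below their blue points.

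Some hosts share a promoter region with a gene on the opposite strand, and the pairs allow a comparison that needs no scaling. SNHG1 starts 188 bases from SLC3A2, which encodes the CD98 heavy chain of amino acid transporters and points the other way. SLC3A2 had 27307, 27353 and 22606 normalized counts in shControl and 15493, 13469 and 13636 in shDYRK1A, and with a log2 fold change of -0.86 ± 0.13 (adjusted p = 1.22e-09, edgeR; -0.45 ± 0.05 on the TMM scale, adjusted p = 9.44e-06) both genes of the pair were lower on both scales. The log2 ratio of SNHG1 to SLC3A2 counts was -1.88, -1.97 and -1.97 in shControl and -1.74, -1.76 and -1.73 in shDYRK1A. It was higher by 0.20 in shDYRK1A with no overlap, at an exact two-sided permutation p of 0.1, which is the smallest that 3 libraries against 3 can give (0.3 after adjustment over the 3 pairs tested).

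GAS5 and ZBTB37, a zinc finger gene whose start lies 800 bases away so that the transcribed regions overlap, did not separate. ZBTB37 had 515, 512 and 451 normalized counts in shControl and 442, 272 and 358 in shDYRK1A (log2 fold change -0.46 ± 0.17, adjusted p = 0.0118, edgeR), and the log2 ratio of GAS5 to ZBTB37 was 4.06 ± 0.10 and 3.90 ± 0.23 (SD, n = 3, exact permutation p = 0.4, adjusted 0.5). The GENCODE start of ZFAS1 lies 248 bases from that of ZNFX1, with overlapping transcribed regions. The RefSeq start of ZFAS1, used for the printed sequence, lies 464 bases further downstream and past the ZNFX1 start, with no overlap at the starts. ZNFX1 encodes a helicase-type zinc finger protein of antiviral defence. ZNFX1 had 4702, 4531 and 3992 normalized counts in shControl and 4235, 3347 and 4317 in shDYRK1A, and like ZFAS1 it did not pass on the spike-in scale (-0.15 ± 0.14, adjusted p = 0.317, edgeR). On the TMM scale ZNFX1 was higher (0.25 ± 0.06, adjusted p = 0.00347, edgeR). The log2 ratio of ZFAS1 to ZNFX1 was -1.63 ± 0.18 in shControl and -1.76 ± 0.21 in shDYRK1A (exact permutation p = 0.5, adjusted 0.5). AC015802.4, an antisense RNA 83 bases from SNHG16, had 19 to 32 raw counts per library and stayed under the filter.

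The libraries were made from polyadenylated RNA and hardly measure the snoRNAs themselves. GENCODE v29 places 26 snoRNA genes inside 9 of the hosts on the same strand, with no such entry inside GAS5. Of the 26, 22 share bases with host exons, and all 22 were listed at 0 in every library. The 4 genes wholly outside host exons had counts. The zeros thus followed the overlap with host exons exactly. Whether reads on shared bases were left out as ambiguous was not tested, so these zeros do not show that a snoRNA was absent. SNORD12B, a box C/D snoRNA in an intron of ZFAS1 (chromosome 20, 49280319 to 49280409, plus strand), had 31, 41 and 30 raw counts in shControl and 15, 11 and 13 in shDYRK1A. No shDYRK1A library reached a control, and the filterByExpr fit gave a log2 fold change of -1.68 (adjusted p = 0.000129; -1.31 on the TMM scale, adjusted p = 0.00251, edgeR). ZFAS1 itself was at -0.30 and 0.11 on these scales, and the difference between host and snoRNA gene was not tested. SNORD99 in SNHG12 had 25, 19 and 22 raw counts in shControl and 29, 11 and 21 in shDYRK1A, which overlapped. SNORD1B in SNHG16 and SNORD12C in ZFAS1 had 0 to 10 counts per library. At such counts, reads from mature snoRNA, unspliced host and other RNA of the intron cannot be told apart.

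Other snoRNA hosts gave the setting for these values. The 24 further noncoding host names gave 21 distinct genes with a row, as some names were synonyms, and 11 of these genes passed the filter. Their median log2 fold change was -0.16 on the spike-in scale and 0.25 on the TMM scale. On the spike-in scale 3 were lower and 2 higher (edgeR, adjusted p below 0.05), against 63.4% and 1.08% of all genes. On the TMM scale 7 were higher and the other 4 did not pass. Higher on that scale were 27.3% of all genes and 47.6% of the 166 tested noncoding genes outside the 10. DANCR, which hosts SNORA26 and has been linked to the undifferentiated state of progenitor cells, had the highest value with 1129, 1089 and 835 normalized counts in shControl and 1540, 1290 and 1236 in shDYRK1A (0.41 ± 0.15, adjusted p = 0.0127; 0.82 ± 0.07 on the TMM scale, adjusted p = 3.02e-06, edgeR). SNHG17 had the lowest, at -0.41 ± 0.15 (adjusted p = 0.0142), and it was at -0.00 on the TMM scale. The 166 tested noncoding genes outside the 10 had a median of -0.23 on the spike-in scale and 0.17 on the TMM scale, and the 9379 protein-coding genes -0.41 and -0.00. The medians of the 9 hosts on both scales were thus below those of other noncoding genes and nearer to those of coding genes, which is a description of these lists and not a test.

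**Figure D4:**
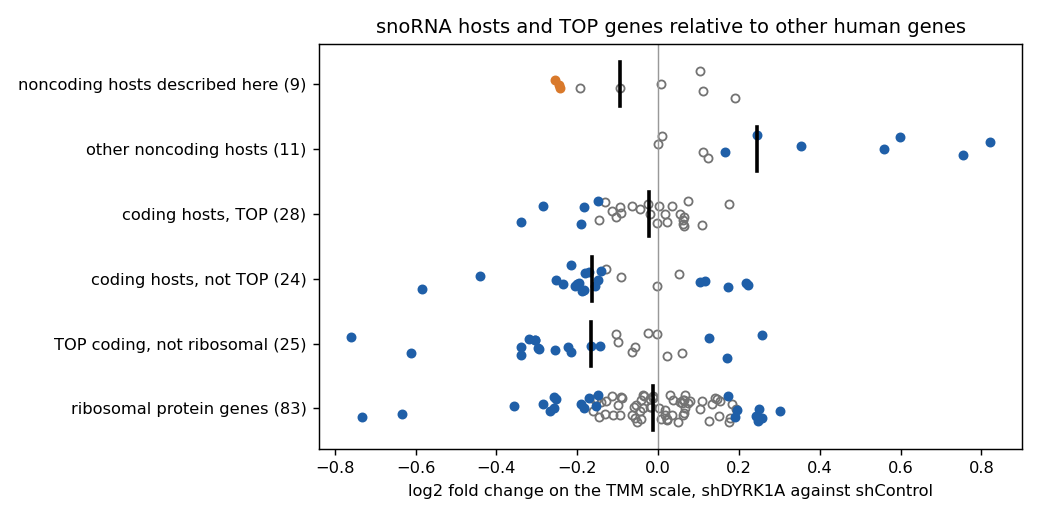
Log2 fold change on the TMM scale for each tested gene of 6 lists (number tested in parentheses), with filled points for genes at an adjusted p below 0.05, open points for the rest and a black bar at the median. The 9 hosts lie between -0.26 and 0.19, inside the range of the RPGs, and the other noncoding hosts extend to 0.82.

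The counts of the lists that follow stand beside shares of 63.4% lower on the spike-in scale and 28.6% lower and 27.3% higher on the TMM scale over all genes. Among coding hosts of the TOP class, 27 of 28 were lower on the spike-in scale (median -0.43) and 5 on the TMM scale (17.9%, median -0.02), from EIF4A2, an RNA helicase of translation initiation, at -0.74 to RPS20 at -0.24. Among coding hosts outside the class, 21 of 24 were lower on the spike-in scale (median -0.57), and on the TMM scale 15 were lower and 5 higher (median -0.16). IPO7, an import receptor, had the lowest value of these with -0.98, and TNPO2, another import receptor, the highest with -0.18. The RPGs, grouped with the hosts by the TOP class, had a median of -0.43 (67 of 83 lower) on the spike-in scale and -0.01 (13 lower, 15.7%, and 8 higher, 9.64%) on the TMM scale, from RPL26 at -1.14 to FAU at -0.11. The TOP genes that encode no ribosomal protein had medians of -0.57 (22 of 25 lower) and -0.17 (14 lower, 3 higher), from NAP1L1, a histone chaperone, at -1.17 to PFDN5, a prefoldin subunit, at -0.16. Values named singly in this paragraph are log2 fold changes on the spike-in scale.

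Genes that act on the hosts' products were counted in the same way on the spike-in scale. Of the 8 core proteins of the snoRNA particles, 5 were lower (62.5%, median -0.53), a share near the 63.4% of all genes, from GAR1, a subunit of the H/ACA particle, at -0.98 ± 0.16 (adjusted p = 6.51e-09, edgeR) to NOP10, of the same particle, at -0.18, and on the TMM scale 3 were lower and 3 higher. Of 14 assembly factors, 13 were lower (median -0.56), from PHAX, an export adaptor for small RNAs, at -0.94 to PIH1D1 at -0.30, and on the TMM scale 7 were lower and the other 7 did not pass. Of 14 factors of nonsense-mediated decay and the exon junction complex, 12 were lower (median -0.46), from SMG1, the kinase of UPF1, at -0.84 to UPF1 itself at -0.16. On the TMM scale 4 were lower and 2 higher, with SMG1 at -0.44 (adjusted p = 0.00095) and UPF1 at 0.24 (adjusted p = 0.00063, edgeR). Of 7 tested coding genes whose transcripts are known targets of that decay, 7 were lower (median -0.53) on the spike-in scale and 3 on the TMM scale, from UPP1, a uridine phosphorylase, at -0.93 to GABARAPL1 at -0.30. Of 13 regulators of TOP transcripts, 9 were lower (median -0.50) and, on the TMM scale, 4 lower and 2 higher, led by LARP1, which binds the TOP start, at -0.66 (adjusted p = 3.80e-06; -0.26 on the TMM scale, adjusted p = 0.000372, edgeR), while MTOR was at -0.20 (adjusted p = 0.196) and at 0.21 on the TMM scale (adjusted p = 0.00365).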

How the data were processed

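Messenger RNA of 6 T98G libraries was analysed, grouped by the sample titles. The authors deposited raw gene counts per library (58174 genes each), made from TruSeq stranded paired-end reads. Their processing notes name STAR, DESeq2, hg38 and dm3, and the annotation release and the strand setting are not given in the sources used here. They also deposited a normalized signal for 23026 genes, which is each raw count divided by 1 constant per library, derived by the authors from the Drosophila spike-in reads. Coordinates of 95.83% of those genes equalled GENCODE v29 on GRCh38. The deposited comparison table holds the authors' fold changes and p-values and was not used. All per-sample columns matched a sample, and 0 were left over. Summary lines were left out, of which ambiguous reads made up 3.42 to 3.59%.

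Genes with a mean normalized CPM above 10 were tested with edgeR 4.0.16 (glmQLFit, robust, and glmQLFTest, in R 4.3.3), first with the authors' constants as size factors and then with TMM factors, with Benjamini-Hochberg adjustment across the 9697 genes. Each SE was taken as the log2 fold change over the root of its F statistic. SNHG12, SNORD12B, SNORD99 and AC015802.4 were read from the filterByExpr fit. Alternatives were median-of-ratios scaling, DESeq2 1.42.0, filterByExpr, a minimum of 1 count, the replicate letter as a block and leaving out each library. The fits were tested on simulated data, and replicates were compared by chi-square per degree of freedom, which was 3.49 to 12.2, so no library was counted as a repeat of another.

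The hosts, the lists set beside them and the rule for naming genes were chosen with earlier results of these data known. Named genes are the 10 hosts, snoRNA genes inside them, opposite-strand genes starting within 1000 bases, DYRK1A, and the lowest and highest member of each list. SNHG5, SNHG6, SNHG8, SNHG16 and MTOR are also named where a library or value was described. Start sequences are from RefSeq (GRCh38.p14).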

Additional observations from a re-analysis of the deposited data

How the results depend on the processing

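The count of 7 lower hosts on the spike-in scale stayed between 5 and 8 when each library was left out in turn. All genes called lower in these fits ranged from 3979 of 9613 to 7549 of 9727. The count of lower hosts was 3 with TMM scaling and 3 with median-of-ratios scaling, beside 2769 and 2719 of 9697 genes. The count of higher hosts stayed at 0 on that scale in all 12 alternatives, leaving out each library included (0 to 0). On the TMM scale the count of 3 lower hosts was 5 with a minimum of 1 count, beside 3858 of 32001 genes. Over left-out libraries it ranged from 2 to 5, beside 2282 of 9727 to 2902 of 9719 genes, and the count of higher hosts ranged from 0 to 1. The 4 hosts with the smallest falls on the spike-in scale changed sign with the scale. On the spike-in fit, TMM and median-of-ratios scaling turned SNHG16 (0.10 and 0.11), SNHG7 (0.0062 and 0.0094), SNHG8 (0.19 and 0.19) and ZFAS1 (0.11 and 0.11). On the TMM scale SNHG7 turned to -0.0244 with filterByExpr and -0.0401 with a minimum of 1 count, and it ranged from -0.0244 to 0.0249 over left-out libraries. GAS5 and SNHG1 kept their direction and their calls in every alternative run on both scales.

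With the letter 1A, 1B or 1C as a replicate block, 6 hosts were lower on the spike-in scale and 4 on the TMM scale. The same fits called 5911 and 2847 of 9697 genes lower. SNHG16 did not pass (-0.30, adjusted p = 0.058, edgeR) and SNHG6 passed on the TMM scale (-0.20, adjusted p = 0.0406). Deviations from the group means of same-letter libraries correlated at 0.151, 0.0735 and 0.128 over genes, so not all were above 0.1 and the letters were not taken as pairs, although each library correlated best with the library of its own letter. The comparison rests on 1 hairpin and 3 libraries a group. The SE of the tested hosts was 0.13 to 0.16 in log2 on the spike-in scale and 0.05 to 0.09 on the TMM scale, which limits what differences could be detected in SNHG8, ZFAS1 and SNHG16.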
